A study of Homo sapiens with 16 samples.

Results

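The ERG-only intervals absent with vehicle are stretches of the VCaP genome at which ERG binding was called after androgen, but at which neither GABPα with androgen nor ERG without androgen was called. They were selected on 3 peak files, as the high confidence ERG intervals with methyltrienolone (R1881) that overlapped no MACS peak of GABPα with R1881 and no MACS peak of ERG with vehicle. This left 328 of the 2229 high confidence ERG intervals with R1881 (14.7%, 95% Wilson interval 13.3 to 16.2%), out of 39138 high confidence intervals in the 10 samples with peak files. In the text below they are called vehicle-absent, and the 798 ERG-only intervals that did overlap an ERG peak with vehicle are called vehicle-present. Absent means that MACS called no peak, which is a statement about a threshold and not about the lack of ERG at the site.

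VCaP is a prostate cancer cell line, and Jurkat is a T-cell leukaemia cell line. VCaP cells were moved to medium with charcoal-stripped serum, from which steroid hormones have been removed, for 48 h, and then received 1 nM R1881, a synthetic androgen, or the same volume of ethanol (vehicle). Another VCaP sample for each target is labelled t0, with no dose given. Each VCaP treatment and target is 1 sample with no replicate, and Jurkat cells, for which no treatment is labelled, have 2 replicates per target. The sample labels and the methods of the study give different antibodies for the ERG precipitations, and the methods list the catalogue number in the labels for a target other than ERG. Which antibody was used cannot be told apart here, so ERG below stands for the target named in the labels, and whether another protein was precipitated in its place was not tested. The peak files hold neither read numbers nor expression values. Sequencing depth is therefore unknown, and the identity of the cells could not be checked against marker genes. MACS called 23947 ERG peaks in VCaP cells with R1881, 19504 with vehicle and 6963 at t0. High confidence intervals were far fewer for ERG, at 2229 with R1881, 743 with vehicle and 2 at t0.

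ERG and GABPα are both transcription factors of the ETS family, which share a DNA-binding domain and recognise sites built around GGAA. In many prostate cancers, VCaP included, a fusion to the androgen-regulated TMPRSS2 promoter brings ERG under the control of androgen. GABPα is expressed in most tissues, acts together with GABPβ and is best known for binding near the promoters of housekeeping genes. How much ERG protein the cells held under each treatment was not tested.

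Of all high confidence ERG intervals with R1881, 30.7% had no ERG peak with vehicle. For the ERG-only intervals, this share was 29.1% (328 of 1126, interval 26.6 to 31.9%), and for the intervals with a GABPα peak it was 32.3% (356 of 1103, interval 29.6 to 35.1%). Because the rule uses this call, the shares are a description and were not tested. Among all 23947 ERG MACS peaks with R1881, of which 15363 had a score under 100, 67.7% had no ERG peak with vehicle.

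The vehicle-absent intervals were weaker ERG peaks than the vehicle-present ones, but the strong end of the range was not empty. Scores here are those of MACS, 10 times the −log10 of a peak's p-value, and start at 50. With R1881, the vehicle-absent intervals had a median score of 264 (quartiles 166 and 426, range 54.49 to 943.43). The vehicle-present intervals had a median of 360 (quartiles 228 and 536, range 50.57 to 3100). No vehicle-absent interval was among the 100 highest-scoring ERG intervals with R1881, whereas 15 vehicle-present intervals were. Among the 500 highest, 25 were vehicle-absent and 139 were vehicle-present. Altogether 94 vehicle-absent intervals (28.7%) had a score of 400 or more, a smaller share than the 339 vehicle-present ones (42.5%). Such scores were found at 433 of all 1126 ERG-only intervals and at 681 of the 1103 intervals with a GABPα peak. These scores come from the sample that the rule used, so they carry no test.

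The share of ERG-only intervals that were vehicle-absent was lower in each higher range of the ERG score. It was 55.2% at scores of 50 to 100 (32 of 58, interval 42.5 to 67.3%), 39.3% at 100 to 200 (79 of 201), 28.3% at 200 to 400 (123 of 434) and 21.7% at 400 and above (94 of 433, interval 18.1 to 25.8%). Intervals with a GABPα peak showed the same order above a score of 100, with shares of 57.1%, 38.5% and 25.8%. Intervals with a score of 400 or more and no ERG peak with vehicle were thus found in both kinds. At the vehicle-present intervals, the ERG peaks with vehicle had a median score of 179 (quartiles 109 and 325), below the score of the same intervals with R1881.

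**Figure D1:**
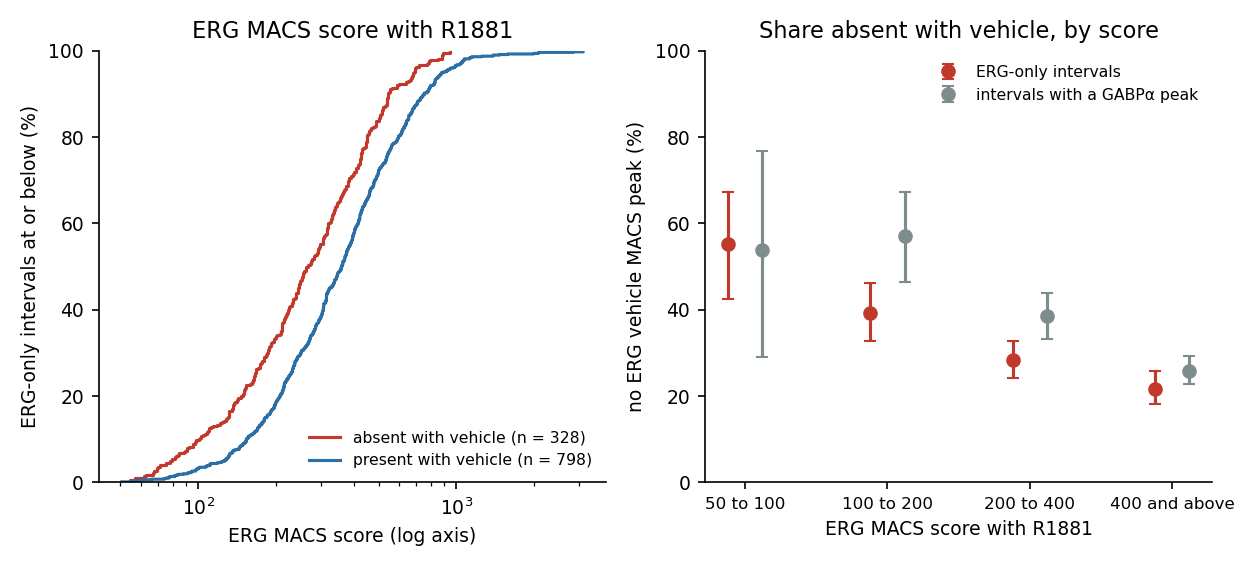
The left panel gives the cumulative share of ERG-only intervals (%) against their ERG MACS score with R1881 on a log axis, for 328 vehicle-absent (red) and 798 vehicle-present (blue) intervals. The red curve lies to the left, with medians of 264 and 360. The right panel gives the share (%) of intervals with no ERG vehicle MACS peak in 4 score ranges for ERG-only intervals (red) and intervals with a GABPα peak (grey), with 95% Wilson intervals, and the ERG-only share goes from 55.2% in the lowest range to 21.7% in the highest.

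The strongest vehicle-absent peak lay on chromosome 2 and the next ones on chromosomes 10 and 13. All positions are in build hg18. The peak on chromosome 2 had a score of 943.43 and held a pair of members, at chr2:178864318-178864465 and chr2:178864523-178864667. The nearest ERG peak with vehicle was 8876 bp away from the first of these and had a score of 58.06. The member at chr10:1357036-1357348 had a score of 890.42, with the nearest GABPα peak with R1881 474 bp away and the nearest ERG peak with vehicle 94897 bp away. On chromosome 13, 1 MACS peak with a score of 881.79 was split into 3 members, at chr13:108987603-108987844, chr13:108987865-108987946 and chr13:108987975-108988124. No other MACS peak held as many members. None of these 6 members overlapped a MACS peak in any of the 7 samples that the rule did not use. Even so, 157 of the 2229 ERG intervals with R1881 had a higher score than the best member, and 35 of those were vehicle-present.

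The rule cuts through closely spaced peaks in a few places. The smallest gaps between a member and an ERG peak with vehicle were 73 bp at chr3:32062340-32062503 (score 236.82, vehicle peak 213.46), 79 bp at chr9:24371763-24371969 (score 416.18, vehicle peak 79.24) and 85 bp at chr9:104323271-104323450 (score 224.59, vehicle peak 80.7). Among the vehicle-present intervals, the shortest overlaps with an ERG vehicle peak were 49, 49 and 51 bp. They were at chr2:90960774-90960822 (score 144.47, vehicle peak 190.66), chr2:90962133-90962181 (score 237.09, vehicle peak 65.94) and chr16:44974542-44974592 (score 132.59, vehicle peak 126.73). Each overlap was the full width of its interval, so these were narrow intervals wholly inside a vehicle peak and not near misses. For the GABPα condition, the smallest gap of a member was 62 bp. The smallest overlap among the excluded intervals that were also absent with vehicle was 60 bp. The narrowest of those intervals was itself 60 bp wide, so it too lay wholly inside a peak. When the whole MACS peak around the interval was considered, 9 members touched an ERG peak with vehicle and 2 touched a GABPα peak with R1881.

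Vehicle-absent and vehicle-present intervals had a like width. The median was 160.5 bp (quartiles 130 and 195, range 52 to 319) for the vehicle-absent intervals and 153.5 bp (quartiles 119 and 197, range 49 to 712) for the vehicle-present ones. The MACS peaks around them were broader, with medians of 650 and 733 bp. Stronger members were somewhat wider, with a median of 133.5 bp at scores of 50 to 100 and of 163 bp at 400 and above, and Spearman's rho between score and width was 0.22 across the 328 members. The members came from 318 MACS peaks, of which 309 held 1 member, 8 held 2 and 1 held 3.

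Most members had another ERG MACS peak with R1881 within 100 kb (285, 86.9%), as did most vehicle-present intervals (704, 88.2%). The gap between the edges of a member and the nearest other ERG MACS peak with R1881 had a median of 13456 bp, and 151 members (46.0%) had one within 10 kb. For the vehicle-present intervals the median was 13513 bp, with 43.4% within 10 kb. High confidence neighbours were rarer. Within 10 kb, 49 members (14.9%) had a high confidence ERG interval of another MACS peak, against 115 vehicle-present intervals (14.4%), and within 100 kb 137 (41.8%) and 287 (36%) did. Of the 49 members with such a neighbour within 10 kb, the nearest was another member for 15, a vehicle-present interval for 16, an interval with GABPα that was absent with vehicle for 3 and one with GABPα that was present with vehicle for 15. In the whole file these classes held 328, 798, 356 and 747 intervals, in that order. Within 10 kb, another member was thus the nearest about as often as a vehicle-present interval, although members were fewer. For the 137 members with such a neighbour within 100 kb, the counts were 33, 46, 20 and 38 in the same order. An interval with GABPα that was absent with vehicle was the nearest least often at both distances, although that class was of like size to the members. Members that lie close together each count the other, so these counts are not independent. These gaps come from the same file as the rule and carry no test.

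ERG peaks with vehicle were also close to many members. The median gap to the nearest one was 21693.5 bp, with 24 members (7.32%) within 1 kb, 117 (35.7%) within 10 kb and 258 (78.7%) within 100 kb. These neighbouring vehicle peaks had a median score of 75.6 (quartiles 59.3 and 128), near the median of 68.83 over all 19504 ERG peaks with vehicle. GABPα peaks with R1881 were further off, with a median gap of 42549 bp for the vehicle-absent and 50144 bp for the vehicle-present intervals. To the nearest ERG peak at t0, the medians were 115478 and 86200 bp.

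**Figure D2:**
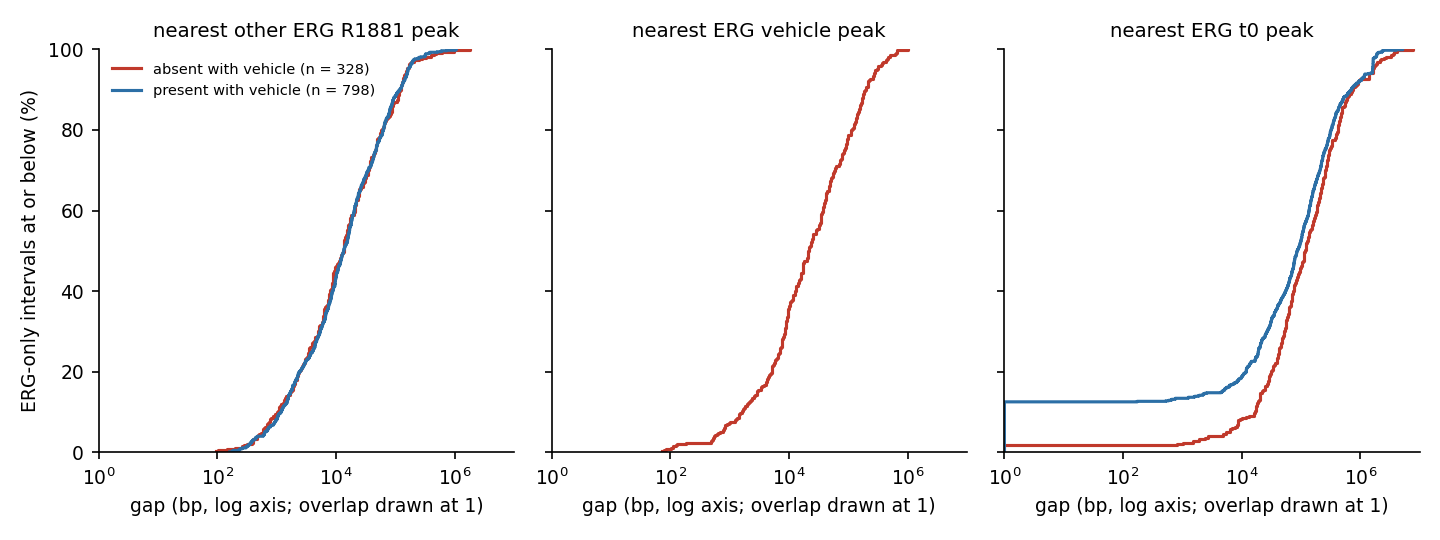
Cumulative share of ERG-only intervals (%) against the gap in bp, on a log axis, to the nearest other ERG R1881, ERG vehicle and ERG t0 MACS peak, for vehicle-absent (red) and vehicle-present (blue) intervals. The curves run together for R1881 (medians 13456 and 13513 bp), the middle panel shows the vehicle-absent intervals alone because the others overlap a vehicle peak by the rule, and in the right panel the blue curve starts at 12.5%, the share that overlapped a t0 peak, and the red one at 1.83%.

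Members were spread thinly over the genome. They fell into 260 blocks of 1 Mb, of which 216 held 1 member, and the median gap to the nearest member of another MACS peak was 2092192 bp. Outside chromosome 8, the 100 kb window with the most members held 5, on chromosome 11. These were chr11:65651672-65651858 (score 62.84), the pair chr11:65710562-65710645 and chr11:65710698-65710813 in 1 MACS peak (score 210.84) and the pair chr11:65713386-65713473 and chr11:65713500-65713756 in another (score 109.83). None of these 5 overlapped a peak of the 7 samples that the rule did not use. At the other extreme, chr19:46119074-46119170 (score 553.11) was 609318 bp from any other ERG MACS peak with R1881 and chrX:3625454-3625619 (score 253.49) was 991641 bp away. The largest gap, 1787530 bp, belonged to a weak member on an unlocalised piece of chromosome 17 (chr17_random:118754-118849, score 95.69), which also had an ERG peak at t0 with a score of 85.2.

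No chromosome held a share of the vehicle-absent intervals that differed from its share of the vehicle-present ones after adjustment. Fisher's exact test was run for 23 chromosomes, and 0 had a Benjamini-Hochberg adjusted p under 0.05, while 4 had an unadjusted p under it. The smallest unadjusted p was on chromosome 11, with 20 vehicle-absent (6.10%, interval 3.98 to 9.23%) and 21 vehicle-present intervals (2.63%, interval 1.73 to 3.99%), for an unadjusted p of 0.0078 and an adjusted p of 0.172. Of the 20 on chromosome 11, 5 were those of the window above. Chromosome 4 went the other way, with 3 (0.915%) and 28 (3.51%) and an adjusted p of 0.172. Chromosome 13 held 8 and 6, and chromosome 16 held 5 and 32, both with an adjusted p of 0.237. Chromosome 8 held more members than any other chromosome, 43 of the 328 (13.1%, interval 9.88 to 17.2%) and 81 of the vehicle-present intervals (10.2%, interval 8.24 to 12.4%). It held 12 of the 356 intervals with GABPα that were absent with vehicle. Over all 2229 ERG intervals with R1881, chromosomes 4, 8, 11, 13 and 16 held 3.68%, 8.57%, 3.77%, 1.39% and 2.38%. Those shares were not tested. Copy number in VCaP cells, which can change the number of peaks on a chromosome, was not tested.

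**Figure D3:**
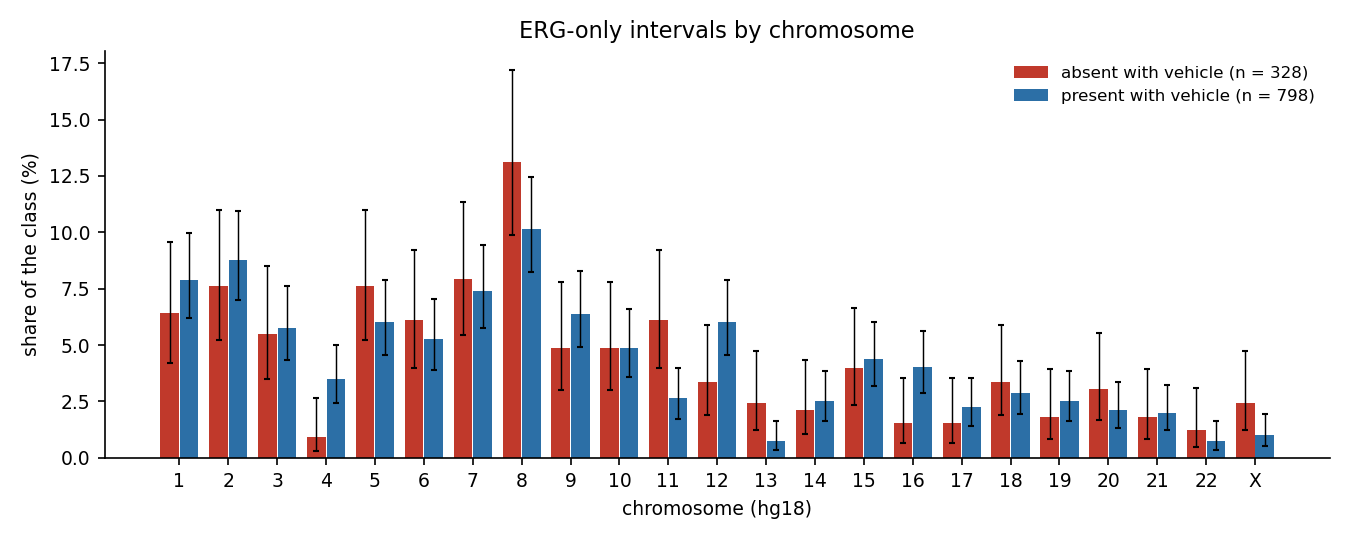
Share of the class (%) on each chromosome of hg18 for 328 vehicle-absent (red) and 798 vehicle-present (blue) ERG-only intervals, with 95% Wilson intervals as error bars. Chromosome 8 has the tallest bars (13.1% and 10.2%). Chromosome 11 (6.10% and 2.63%) and chromosome 4 (0.915% and 3.51%) have the smallest unadjusted p-values by Fisher's exact test, with adjusted p-values of 0.172.

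The samples that the rule did not use allow a comparison of both classes on calls outside the rule. These calls are not independent of what the rule selects. Only the vehicle-present intervals were required to have an ERG peak in another VCaP library. Whether such intervals are called more readily in any further VCaP library was not tested. In VCaP cells at t0, ERG peaks were found at far fewer vehicle-absent than vehicle-present intervals. An ERG MACS peak at t0 overlapped 10.8% of all ERG intervals with R1881. It overlapped 6 vehicle-absent intervals (1.83%, interval 0.841 to 3.93%) and 100 vehicle-present ones (12.5%, interval 10.4 to 15%). The odds ratio was 0.130 (95% interval 0.0462 to 0.298), and Fisher's exact test over intervals, two-sided, gave an adjusted p of 1.5e-09 over the 7 samples compared. The t0 scores at the 6 members ran from 56.82 to 85.2, where the median over all 6963 ERG peaks at t0 was 57.54. Among intervals with an ERG score of at least 400, 2 of 94 vehicle-absent and 61 of 339 vehicle-present intervals had a t0 peak, and the odds ratio pooled over the 4 score ranges was 0.129. In the lowest range, where few intervals were available, 3 of 32 and 1 of 26 had one.

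GABPα with vehicle showed a difference of the same direction. A GABPα MACS peak with vehicle overlapped 32.6% of all ERG intervals with R1881, but both classes here were chosen to have no GABPα peak with R1881. It overlapped 3 vehicle-absent intervals (0.915%, interval 0.312 to 2.65%) and 95 vehicle-present ones (11.9%, interval 9.84 to 14.3%), with an odds ratio of 0.0684 (interval 0.0138 to 0.209) and an adjusted p of 6.9e-11 by Fisher's exact test. Of the 3, chr9:91361552-91361664 had a GABPα score of 117.48 and chr10:82241416-82241563 a score of 52.88, and the last was on chromosome 8. They were named after their values had been seen. The second of these also had an ERG peak at t0, with a score of 56.82. Nearly all of these GABPα calls were short of high confidence, since 1 interval of each class overlapped a high confidence GABPα interval with vehicle. At t0, GABPα peaks, which overlapped 6.91% of all ERG intervals with R1881, were found at 1 vehicle-absent interval (0.305%) and 4 vehicle-present ones (0.501%). The odds ratio of 0.607 had an interval from 0.0123 to 6.17 (adjusted p of 1, Fisher's exact test), so a difference was not detectable with so few calls. The single member, chr12:11008413-11008575, had a GABPα t0 score of 62.03 and was also named after its value had been seen.

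In Jurkat cells, ERG peaks were rare at the vehicle-absent intervals in both replicates. Jurkat ERG replicate 1 had a MACS peak at 3.81% of all ERG intervals of VCaP cells with R1881, and replicate 2 at 5.61%. For the vehicle-absent intervals this was 3 (0.915%, interval 0.312 to 2.65%) and 8 (2.44%, interval 1.24 to 4.74%), and for the vehicle-present intervals 65 (8.15%, interval 6.44 to 10.2%) and 75 (9.40%, interval 7.56 to 11.6%). The odds ratios were 0.104 (interval 0.0208 to 0.322) and 0.241 (interval 0.0993 to 0.508), with adjusted p-values of 6.4e-07 and 2.0e-05 by Fisher's exact test. All 3 members with a peak in replicate 1 also had one in replicate 2. With high confidence Jurkat ERG intervals, which overlapped 2.78% of all ERG intervals of VCaP cells with R1881 in replicate 1 and 2.78% in replicate 2, the counts were 3 and 5 for the vehicle-absent and 51 and 51 for the vehicle-present intervals. Jurkat ERG peaks were also few at the intervals with a GABPα peak, at 2 (0.562%) and 10 (2.81%) of the 356 that were absent with vehicle and at 15 (2.01%) and 32 (4.28%) of the 747 that were present with vehicle. These were not tested.

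The Jurkat overlap came largely from 4 short stretches of the genome. In 4 blocks of 1 Mb, more than 50% of at least 5 ERG intervals with R1881 had a peak in Jurkat ERG replicate 2. The intervals in them lay at chr16:44943480-44989023 (34 intervals), chr2:90960548-90977595 (16 intervals), chr4:48026079-48844576 (7 intervals) and chr10:41676341-41711350 (6 intervals). They held 6 vehicle-absent and 53 vehicle-present intervals. Of these, 3 and 52 had a peak in Jurkat ERG replicate 1, and all 6 and all 53 had one in replicate 2. Jurkat GABPα also had a peak at many of them, at 4 and 33 in replicate 1 and at 5 and 51 in replicate 2. In replicate 1, this held for 1 of the 6 ERG intervals in the block on chromosome 10 and for 1 of the 7 on chromosome 4. At t0, none of the 6 vehicle-absent and 53 vehicle-present intervals overlapped an ERG peak. Whether these stretches are repeats was not tested.

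The 5 members that overlapped a high confidence Jurkat ERG interval all lay in these blocks. At chr16:44959310-44959375 the ERG score was 306.52 with R1881 in VCaP cells, and 126.19 and 413.98 in Jurkat ERG replicates 1 and 2. The Jurkat GABPα scores at this member were higher than the ERG ones, at 525.35 and 739.08. The member at chr10:41689404-41689486 (score 104.29) had Jurkat ERG scores of 118.77 and 457.98 and a score of 58.58 in Jurkat GABPα replicate 2. At chr16:44945131-44945235 (score 75.14) the Jurkat ERG scores were 200.12 and 127.31, with no Jurkat GABPα peak. The remaining 2, at chr16:44949402-44949453 (score 88.32) and chr2:90976601-90976675 (score 67.6), had an ERG peak in Jurkat replicate 2 alone, with scores of 216.15 and 221.58, and GABPα peaks in both Jurkat replicates. These 5 were narrow, at 52 to 105 bp, and 4 of them lay within 1 kb of an ERG peak with vehicle, the member on chromosome 10 being 1028 bp from one.

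Because the blocks were picked by their Jurkat ERG peaks, leaving them out lowers the Jurkat shares by construction, and the counts without them are given with no test. No vehicle-absent interval of 322, which allows a share of up to 0.932%, and 13 of 745 vehicle-present intervals (1.74%) had a peak in Jurkat ERG replicate 1. In replicate 2 there were 2 (0.621%) and 22 (2.95%). The 2 members were chr6:43782424-43782601, with a Jurkat ERG score of 102.39, and chr15:71950572-71950697, with a score of 191.61, and they were named after their values had been seen. A second reduction did not use the Jurkat calls. When each class was reduced to its highest-scoring interval in each 1 Mb block, 2 of 260 vehicle-absent and 13 of 560 vehicle-present intervals had a peak in replicate 1 and 5 and 22 in replicate 2. The odds ratios were then 0.327 (interval 0.0355 to 1.46) and 0.480 (interval 0.14 to 1.32), both with an adjusted p of 0.243 by Fisher's exact test, so the difference in Jurkat cells no longer passed the test. For ERG at t0 and GABPα with vehicle it did, with odds ratios of 0.148 (interval 0.0521 to 0.345, adjusted p of 1.3e-07) and 0.0571 (interval 0.00673 to 0.218, adjusted p of 7.5e-09).

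Jurkat GABPα followed the same course. Replicates 1 and 2 had a MACS peak at 7.31% and 8.21% of all ERG intervals of VCaP cells with R1881, at 9 (2.74%) and 7 (2.13%) vehicle-absent intervals and at 51 (6.39%) and 71 (8.90%) vehicle-present ones. The odds ratios were 0.414 (interval 0.177 to 0.861, adjusted p of 0.0147, Fisher's exact test) and 0.224 (interval 0.0858 to 0.492, adjusted p of 2.0e-05). Without the 4 blocks, 5 of 322 vehicle-absent and 18 of 745 vehicle-present intervals had a peak in replicate 1, and 2 and 20 had one in replicate 2. With 1 interval per 1 Mb block, the odds ratios were 0.667 (interval 0.189 to 1.93, adjusted p of 0.569) and 0.445 (interval 0.109 to 1.36, adjusted p of 0.243) by Fisher's exact test, so neither replicate passed.

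**Figure D4:**
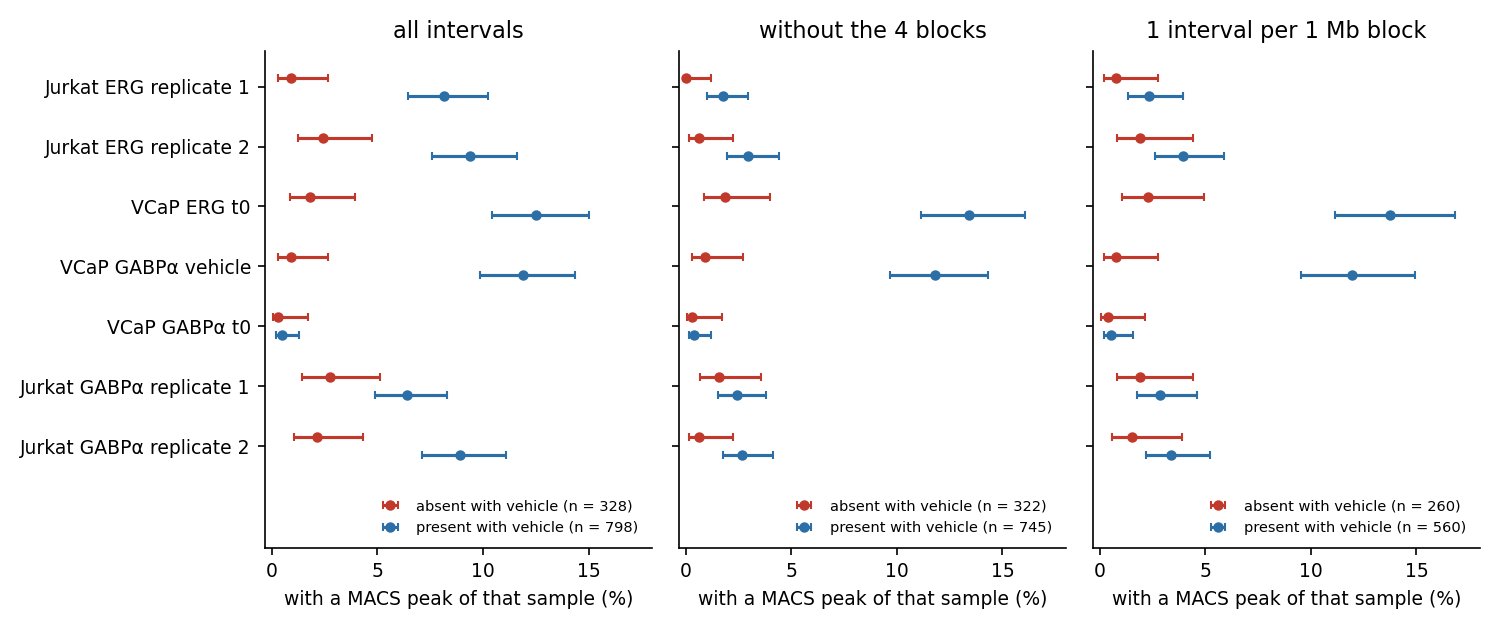
Share (%) of vehicle-absent (red) and vehicle-present (blue) ERG-only intervals that overlap a MACS peak in each of the 7 samples the rule did not use, with 95% Wilson intervals, for all intervals (left), without the 4 blocks of 1 Mb (middle) and with 1 interval per class and 1 Mb block (right). For VCaP ERG at t0 and VCaP GABPα with vehicle the blue points stay between 11.8% and 13.8% in all 3 panels and the red ones at or below 2.31%, while for the 4 Jurkat samples, whose ERG peaks were used to pick the blocks, the blue points move from 6.39 to 9.40% on the left to 1.74 to 2.95% in the middle.

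Of all ERG intervals with R1881, 57.4% overlapped no MACS peak in any of the 7 samples that the rule did not use. This held for 306 vehicle-absent intervals (93.3%, interval 90.1 to 95.5%) and 554 vehicle-present intervals (69.4%, interval 66.1 to 72.5%). The share over all intervals includes those with a GABPα peak with R1881, which both classes lack by the rule. The share of vehicle-absent intervals with no further peak was higher in each higher score range, with 92 of 94 (97.9%) at scores of 400 and above, 118 of 123 (95.9%) at 200 to 400, 73 of 79 (92.4%) at 100 to 200 and 23 of 32 (71.9%) below 100. For the vehicle-present intervals the share at 400 and above was 69.9% (237 of 339). The 2 strong members with a further peak, chr11:81639574-81639688 (score 534.15) and chr5:59718747-59718936 (score 465.36), had an ERG peak at t0 with scores of 65.61 and 62.41, and were named after these values had been seen. In the lowest range the vehicle-absent share was close to that of the vehicle-present intervals, 73.1% (19 of 26), and neither was tested. Since each VCaP condition is 1 library, the tests compare intervals called in these libraries, and neighbouring intervals are not independent, so the p-values do not measure the spread between cultures.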

How the data were processed

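ERG and GABPα were measured by ChIP-seq in VCaP and Jurkat cells. The authors aligned reads to hg18 with BWA 0.5.5, removed duplicates and reads of low alignment quality, and ran MACS and SWEMBL on each sample with its input as control. Their high confidence files hold peaks that the 2 programs have in common, and in 3 samples, ERG with vehicle among them, their intervals are wider than those of SWEMBL. The deposited MACS and high confidence files give a score, −log10 of the p-value multiplied by 10, that starts at 50 (the version of MACS is not given in the sources used here). Per the file headers, the vehicle and R1881 samples of ERG share 1 input library. Another column in 3 high confidence files, with no stated meaning, was not used. The 6 input samples have no peak file here, and read depth is unknown.

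Everything else was computed here in Python 3.11.15 with scipy 1.17.1. Intervals overlapped if they shared at least 1 bp, as in the study, and gaps are between edges. With simulated intervals, overlaps were checked against those of bedtools 2.31.1, and the tests were tested on simulated data. Vehicle-absent and vehicle-present ERG-only intervals were compared with Fisher's exact test, two-sided, over intervals, with Benjamini-Hochberg adjustment over 7 samples or 23 chromosomes. Shares have 95% Wilson intervals, which cover counting error only, and the limit allowed by a count of 0 is 3 counts of the total. Scores, widths and gaps were described without a test. By rule, the named regions are the 6 members with the highest score, members with a high confidence Jurkat ERG interval (at most 6) and those below. They include the 3 members nearest to an ERG vehicle peak and the 3 vehicle-present intervals with the shortest overlap with such a peak. They also include the MACS peak with the most members, the 100 kb window with the most members and the 3 members farthest from another ERG peak. None is on chromosome 8. Regions named outside this rule are marked as such. The members and the lists were chosen with earlier results of these data known. The alternatives were other peak sets for both exclusions, whole MACS peaks, 1 interval per MACS peak, a minimum score of 100, an overlap of 50% of the shorter interval, a distance of 1 kb, score ranges, other sets for the compared samples, leaving out a Jurkat replicate and, added after the data were seen, leaving out chromosome 8 or the 4 blocks of 1 Mb and taking 1 interval per block. Genes, motifs and sequences were not analysed here, since no hg18 genome or annotation was used.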

Additional observations from a re-analysis of the deposited data

Results flagged for a closer look

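The second peak caller gave a signal with vehicle at a few members. Of the 870 SWEMBL intervals called for ERG with vehicle, a set used in no comparison above, some overlapped 5 of the 328 vehicle-absent intervals (1.52%), although MACS called no ERG peak with vehicle there. They overlapped 248 of the 798 vehicle-present intervals (31.1%) and 468 of all 2229 ERG intervals with R1881 (21%). These calls come from the same vehicle library as the rule, so the counts are a description. The 5 include chr16:44959310-44959375 (score 306.52), chr16:44949402-44949453 (score 88.32) and chr16:44983264-44983331 (score 54.54), which all lie in the block on chromosome 16 described above, at 103, 531 and 130 bp from an ERG MACS peak with vehicle. The remaining 2 lie on chromosome 8, with scores of 277.13 and 61.41. The member at chr16:44983264-44983331 was named after its values had been seen. What gives the SWEMBL calls at these 5 was not tested.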

How the results depend on the processing

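The number of vehicle-absent intervals depended on the peak sets used for exclusion. It was 622 with high confidence GABPα intervals and 850 with high confidence ERG vehicle intervals in place of MACS peaks, the latter set being much smaller, and stayed within 1.5 times 328 under the other 5 settings. Of 91 odds ratios recomputed under alternatives, 80 kept their direction and their side of the threshold. Both counts include Jurkat odds ratios without the 4 blocks and with a Jurkat replicate left out. Leaving out the blocks lowers the Jurkat shares by construction, and leaving out a replicate returns the result of the other. These odds ratios are therefore no check on the Jurkat differences. For GABPα at t0 the odds ratio was 0.402 and past the threshold with the high confidence GABPα exclusion, and had no finite value with the high confidence vehicle exclusion. For GABPα with vehicle it turned to 2.44 with high confidence intervals as the readout, where 1 interval of each class was called. For Jurkat GABPα replicate 1 the difference no longer passed with whole MACS peaks (0.503), 1 interval per MACS peak (0.564), high confidence intervals (0.252) or a readout score of at least 100 (0.449). Without the 4 blocks, which were picked by Jurkat ERG peaks, its odds ratio was 0.637, given with no test. With 1 interval per 1 Mb block, the Jurkat differences no longer passed, at 0.327 and 0.480 for ERG replicates 1 and 2 and 0.667 and 0.445 for GABPα replicates 1 and 2. The cause was not tested. ERG at t0 passed under each of its 12 alternatives, with odds ratios from 0 to 0.189. With high confidence intervals as the readout it could not be evaluated, since 0 intervals of either class overlapped one of the 2 at t0. With a Jurkat replicate left out, the odds ratio was that of the other replicate, 0.104 or 0.241 for ERG and 0.224 or 0.414 for GABPα. No paired analysis was possible because no comparison sets Jurkat ERG against Jurkat GABPα samples, and VCaP samples have no replicates. Depth is unknown, so whether weak peaks were missed with vehicle was not tested.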
